A study of Mus musculus with 6 samples.

Results

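Genes of bone morphogenetic protein (BMP) signalling were followed in 6 RNA-seq libraries of xCT knockout mouse embryonic fibroblasts (MEF). There were 9 of them among the 21853 genes of the deposited table: the ligands Bmp2 and Bmp4, the secreted BMP-binding proteins Grem1 and Bmper, the inhibitory SMAD Smad6, and the inhibitor of DNA binding genes Id1, Id2, Id3 and Id4. They were found by gene symbol, and they had been chosen with their values in red clover extract (RCE) and control libraries known. Their differences between the groups are therefore given as a description, with no test. The question asked of them was whether the antagonist Grem1 and the ID genes, a common readout of BMP signalling, move in opposite directions.

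All 6 libraries came from MEF, connective tissue cells grown from embryos, of the C57BL/6J strain and with an age of 12 days in the labels. In all of them xCT, the cystine transporter subunit encoded by Slc7a11, had been knocked out, which leaves cells prone to ferroptosis, an iron-dependent death by lipid peroxidation. The groups were knockout cells given RCE (n = 3) and knockout cells given water (control, n = 3). Neither dose, exposure time, medium nor number of embryos or cell lines was given in the sources used here, and nothing says that replicates were separate cultures. Errors and p-values therefore cover only how far these 6 libraries scatter, possibly for technical reasons.

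BMPs are secreted dimers that bind paired type I and type II receptor kinases, which phosphorylate SMAD1, SMAD5 and SMAD9. These enter the nucleus with SMAD4 and induce, among others, the ID genes and the inhibitory SMADs, SMAD6 and SMAD7, which damp the signal. ID proteins lack a DNA-binding region and hold E proteins in inactive dimers, and in fibroblasts and other mesenchymal cells they are linked to proliferation and held-back differentiation. Gremlin 1, noggin, chordin and related secreted proteins bind BMPs outside the cell and keep them from their receptors.

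Values were in FPKM, that is fragments divided by transcript length and by library depth, which lets levels be compared between genes. Steps between low values gave depths of 45650000 to 58950000 fragments per library. Slc7a11 was at 0.007 to 0.037 FPKM in the 6 libraries. The 2 libraries numbered 1, one per group, stood apart from the other 4 in both groups, so values within same-numbered libraries and without both replicate 1 libraries are given where they matter. Of 10 fibroblast markers all were kept, led by Fn1 and Vim, with summed levels of 5521 to 5896 FPKM in RCE and 6073 to 6477 FPKM in control libraries, and Pdgfrb and Dcn passed the test as lower with RCE. Markers of other cell types summed to 1.57 to 2.63 FPKM in RCE against 2.202 to 3.11 FPKM in control (7 epithelial genes), 2.76 to 3.04 against 3.18 to 3.53 FPKM (6 endothelial genes, of which Emcn passed as lower) and 11.2 to 12.7 against 15.3 to 16.4 FPKM (6 macrophage and leukocyte genes, led by Lyz2, which passed as lower). The 5 skeletal muscle genes summed to 126 to 146 FPKM in RCE against 116 to 135 FPKM in control, led by Acta1, with Des passing as higher and Myod1 at 0 throughout, and the 6 neural genes to 59.0 to 64.0 against 44.7 to 48.9 FPKM, led by nestin (Nes), which passed as higher together with Tubb3. The part of these markers in the results below was not tested.

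Promoter windows from RefSeq on GRCm38.p6, reaching from 250 bases before to 50 bases after the start site, were at hand for 7 of the 9 genes. Those of the genes furthest apart between the groups, together with Smad6, are shown 5′ to 3′ on the gene's own strand, with matches in capitals to the GC-rich SMAD site GGCGCC, the palindromic SMAD4 site GTCTAGAC or the E-box CACGTG:
Grem1 (chr2:113758599-113758898, minus strand): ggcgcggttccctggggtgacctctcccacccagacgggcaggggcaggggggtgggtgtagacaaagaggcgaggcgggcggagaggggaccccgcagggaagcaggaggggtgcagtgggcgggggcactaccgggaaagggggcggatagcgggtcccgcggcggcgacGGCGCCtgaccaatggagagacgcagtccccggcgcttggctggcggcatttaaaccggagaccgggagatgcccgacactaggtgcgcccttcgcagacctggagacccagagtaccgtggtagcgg
Bmp4 (chr14:46390620-46390919, minus strand): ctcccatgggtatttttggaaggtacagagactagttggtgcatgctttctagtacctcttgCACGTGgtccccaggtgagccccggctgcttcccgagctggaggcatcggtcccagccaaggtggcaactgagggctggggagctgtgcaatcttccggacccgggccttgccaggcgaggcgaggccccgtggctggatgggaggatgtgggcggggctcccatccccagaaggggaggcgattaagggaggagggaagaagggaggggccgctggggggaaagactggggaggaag
Id2 (chr12:25096043-25096342, minus strand): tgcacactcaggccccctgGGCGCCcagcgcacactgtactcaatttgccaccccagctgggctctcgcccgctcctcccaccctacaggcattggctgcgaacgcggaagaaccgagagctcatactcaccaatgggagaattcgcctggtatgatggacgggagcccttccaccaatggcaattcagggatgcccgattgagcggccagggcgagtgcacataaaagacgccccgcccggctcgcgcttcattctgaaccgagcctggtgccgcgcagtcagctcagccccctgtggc
Id3 (chr4:136143572-136143871, plus strand): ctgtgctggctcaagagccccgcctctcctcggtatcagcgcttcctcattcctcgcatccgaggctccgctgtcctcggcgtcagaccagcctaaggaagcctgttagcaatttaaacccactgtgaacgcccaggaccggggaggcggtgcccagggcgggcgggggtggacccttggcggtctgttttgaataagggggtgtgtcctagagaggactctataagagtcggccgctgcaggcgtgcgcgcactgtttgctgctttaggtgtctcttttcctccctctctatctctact
Smad6 (chr9:64022010-64022309, minus strand): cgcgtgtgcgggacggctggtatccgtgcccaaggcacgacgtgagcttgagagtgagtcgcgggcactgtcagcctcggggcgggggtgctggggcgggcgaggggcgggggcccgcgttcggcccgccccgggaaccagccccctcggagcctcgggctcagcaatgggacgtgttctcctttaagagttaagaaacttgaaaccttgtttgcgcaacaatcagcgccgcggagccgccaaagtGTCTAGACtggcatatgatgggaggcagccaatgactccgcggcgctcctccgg
The GGCGCC site began at position -78 from the start site in Grem1, at -231 in Id2 and, in a window not shown, at -148 in Id4. Thus both the gene with the lowest RCE to control ratio and ID genes held it, as did 15.8% of 20143 windows of the table's genes. The GTCTAGAC site was found at -4 in Smad6 and in 0.228% of all windows. CACGTG was found at -188 in Bmp4 and in 8.03% of all windows. The short SMAD-binding element GTCT, left in lower case and searched on both strands, occurred 6 times in Grem1, 3 times in Id3 and in Bmper, 2 times in Bmp4 and Smad6 (there within the palindrome), 1 time in Id2 and 0 times in Id4, against a mean of 2.15 per window. The EGR1 site GCGTGGGCG (0.879% of windows) and the cAMP response element TGACGTCA (2.31%) had no match in these 7 windows. Such matches describe letters only.

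Bmp4, a ligand of bone, limb and mesenchyme development, was the most abundant of the 15 ligand genes looked at, and it was lower in every RCE library. Bmp4 (ENSMUSG00000021835, chromosome 14, 46383520 to 46390669, mm10) measured 10.9, 8.83 and 8.13 FPKM in RCE replicates 1, 2 and 3, against 18.3, 13.6 and 16.6 FPKM in control replicates 1, 2 and 3. The groups did not overlap, though replicates spread widely in both. The mean of 9.27 ± 1.41 FPKM with RCE against 16.2 ± 2.33 FPKM in control (SD, n = 3 each) was a ratio of 0.574. On the log2(FPKM + 1) scale, used for all log2 changes here as RCE minus control, this was -0.74 (SE 0.13). Exons of Bmp4 overlap a gene model on the opposite strand, and whether counting used strand was not given. Fewer cells that express a gene and less of its RNA per cell cannot be told apart in these bulk libraries.

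Bmp2 (ENSMUSG00000027358, chromosome 2, 133552159 to 133562885), a close relative of Bmp4 that binds the same receptors, was hardly expressed. It measured 0.240, 0.157 and 0.180 FPKM in RCE replicates 1, 2 and 3 and 0.275, 0.182 and 0.239 FPKM in control replicates 1, 2 and 3. About 39, 33 and 36 fragments lay behind these values in RCE and 53, 32 and 42 in control libraries. The groups overlapped, and the gene fell below the filter of a mean of 1 FPKM, so no log2 change is given.

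Grem1, which encodes gremlin 1, a secreted antagonist that binds BMP2, BMP4 and BMP7, was both the most abundant of the 9 genes and the one with the lowest RCE to control ratio. Grem1 (ENSMUSG00000074934, chromosome 2, 113746164 to 113758646) measured 212, 210 and 210 FPKM in RCE replicates 1, 2 and 3, against 441, 449 and 431 FPKM in control replicates 1, 2 and 3. The RCE libraries lay within a few FPKM of each other, and all were at less than the lowest control value by far more than the spread of either group. Its mean was 210.5 ± 1.01 FPKM with RCE and 440.3 ± 8.82 FPKM in control, a ratio of 0.478 and a log2 change of -1.06 (SE 0.04). Among the 10870 genes kept, it stood at place 54 from the most negative change, and by mean level at place 143 of all genes in the table.

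Bmper (ENSMUSG00000031963, chromosome 9, 23223076 to 23485200) encodes a secreted BMP-binding protein known both to block and, at low amounts, to promote BMP signalling. It measured 41.1, 51.8 and 51.7 FPKM in RCE replicates 1, 2 and 3 and 48.1, 58.1 and 59.7 FPKM in control replicates 1, 2 and 3. The groups overlapped because control replicate 1 lay below RCE replicates 2 and 3. Replicate 1 was the lowest of its group in both, and within each number the RCE library was the lower one, in 3 of 3 pairs. The log2 change was -0.20 (SE 0.12). With median-of-ratios scaling, which sets the median change of all genes to 0, the groups no longer overlapped and the change was -0.28.

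**Figure D1:**
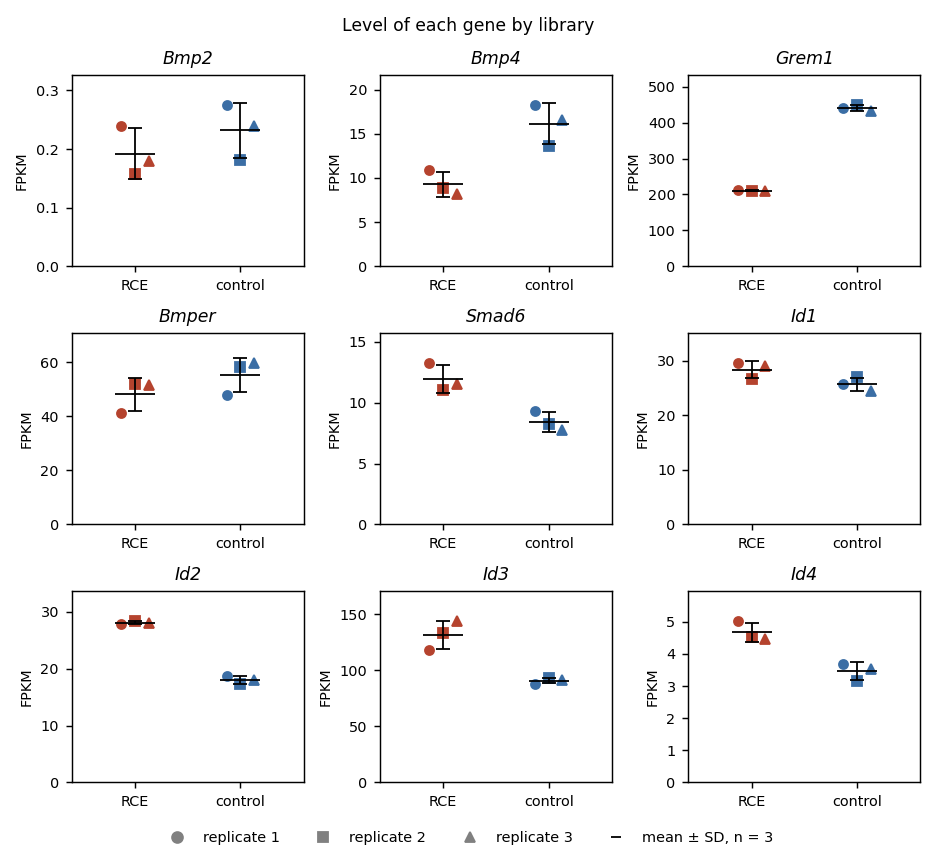
FPKM (vertical axes, from 0) of the 9 genes in the 3 RCE libraries, left and red, and the 3 control libraries, right and blue, with marker shape for replicate number and mean ± SD in black. Grem1 and Bmp4 lie lower and Id2, Id3, Id4 and Smad6 higher in all 3 RCE libraries, while Id1, Bmper and Bmp2 overlap between the groups.

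Smad6 (ENSMUSG00000036867, chromosome 9, 63953076 to 64022059) encodes an inhibitory SMAD that competes for BMP receptors and for SMAD1 and is itself induced by BMP. Its level was 13.2, 11.1 and 11.5 FPKM in RCE replicates 1, 2 and 3, against 9.34, 8.23 and 7.73 FPKM in control replicates 1, 2 and 3. Every RCE library was above every control library, and replicate 1 was the highest of its group in both. The means were 11.9 ± 1.15 FPKM with RCE and 8.43 ± 0.825 FPKM in control, a ratio of 1.42 and a log2 change of 0.46 (SE 0.09).

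Of the ID genes, Id2, Id3 and Id4 were higher in all RCE libraries and Id1 was not. Id2 (ENSMUSG00000020644, chromosome 12, 25093799 to 25097140) had the highest ratio of the 4. It measured 27.8, 28.3 and 28.0 FPKM in RCE replicates 1, 2 and 3, against 18.7, 17.3 and 18.1 FPKM in control replicates 1, 2 and 3. Both groups were tight and far apart. The means of 28.0 ± 0.258 FPKM with RCE and 18.0 ± 0.718 FPKM in control gave a ratio of 1.56 and a log2 change of 0.61 (SE 0.04), place 33 from the most positive among the genes kept.

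Id3 (ENSMUSG00000007872, chromosome 4, 136143497 to 136145755) was the most abundant ID gene. It measured 118, 133 and 144 FPKM in RCE replicates 1, 2 and 3, against 88.2, 93.3 and 91.1 FPKM in control replicates 1, 2 and 3. The RCE libraries spread more than the controls without reaching them. Its ratio was 1.45, with means of 131.7 ± 12.8 FPKM with RCE and 90.9 ± 2.57 FPKM in control and a log2 change of 0.53 (SE 0.08).

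Id4 (ENSMUSG00000021379, chromosome 13, 48261228 to 48266026) was the least abundant. It measured 5.01, 4.54 and 4.46 FPKM in RCE replicates 1, 2 and 3, against 3.70, 3.17 and 3.53 FPKM in control replicates 1, 2 and 3. All RCE values lay above all control values, with a ratio of 1.35 and a log2 change of 0.34 (SE 0.06). Its exons overlap 2 gene models on the opposite strand.

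Id1 (ENSMUSG00000042745, chromosome 2, 152736251 to 152737410), often used as the classical BMP target gene, measured 29.6, 26.6 and 29.0 FPKM in RCE replicates 1, 2 and 3 and 25.7, 27.0 and 24.6 FPKM in control replicates 1, 2 and 3. The groups overlapped, since RCE replicate 2 lay below control replicate 2. The means were 28.4 ± 1.58 FPKM with RCE and 25.7 ± 1.20 FPKM in control. The log2 change of 0.14 (SE 0.06) stood close to the median of all kept genes, which was +0.08, and was 0.05 with median-of-ratios scaling.

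By mean level within each group, the order of the ID genes was Id3, Id1, Id2 and Id4. Id1 and Id2 lay within their spread of each other in RCE libraries (28.4 ± 1.58 and 28.0 ± 0.258 FPKM) and apart in control libraries (25.7 ± 1.20 and 18.0 ± 0.718 FPKM). Summed over the 4 genes, ID transcripts were at 181, 192 and 205 FPKM in RCE replicates 1, 2 and 3 and at 136, 141 and 137 FPKM in control replicates 1, 2 and 3. Id3 made up 65.5 to 70.1% of the sum in RCE libraries and 64.7 to 66.4% in control libraries. The share of Id1 was 13.8 to 16.4% in RCE libraries, against 17.9 to 19.2% in control libraries.

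**Figure D2:**
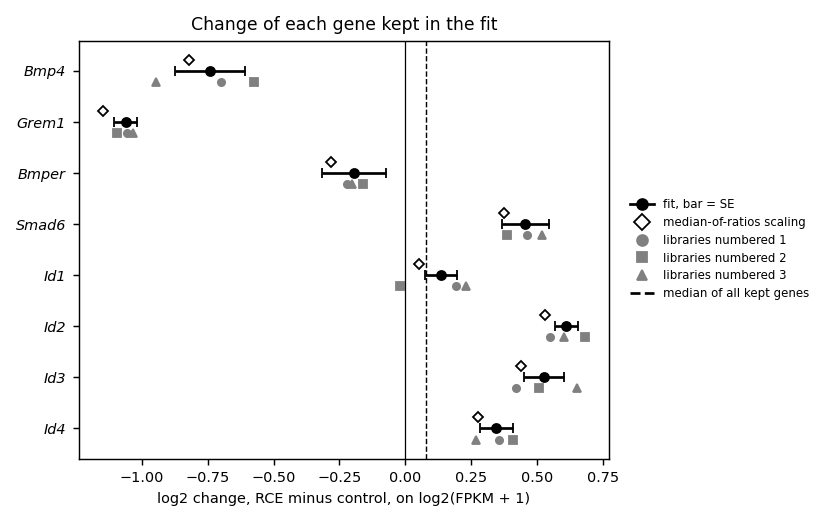
Log2 change, RCE minus control, on log2(FPKM + 1) (horizontal axis) of the 8 genes kept in the fit: filled circles with SE bars, open diamonds after median-of-ratios scaling, grey markers for the difference within each pair of same-numbered libraries, and a dashed line at the median of all kept genes (+0.08). Grem1, Bmp4 and Bmper lie left of 0 in every pair, Smad6, Id2, Id3 and Id4 right of it, and Id1 is on both sides. Numbers 2 and 3 are not ordered by the data, and the sides of Id1 depend on them. For Id1, RCE replicate 2 (26.6 FPKM) lay below control replicate 2 (27.0 FPKM) and above control replicate 3 (24.6 FPKM). RCE replicate 3 (29.0 FPKM) lay above both.

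Grem1 and 3 of the 4 ID genes thus stood on opposite sides, as did Grem1 and Smad6. The ligand Bmp4 stood on the side of Grem1. The change of Id1 was small and positive (0.14, near the median of +0.08 over all kept genes), and its groups overlapped. The ratio of summed ID FPKM to Grem1 FPKM was 0.854, 0.917 and 0.977 in RCE replicates 1, 2 and 3 and 0.309, 0.314 and 0.319 in control replicates 1, 2 and 3. The ratio of Grem1 to Bmp4 FPKM was 19.5, 23.8 and 25.8 in RCE replicates 1, 2 and 3 and 24.2, 32.9 and 26.0 in control replicates 1, 2 and 3. So the Grem1 transcript level exceeded that of Bmp4 in every library, and this ratio overlapped between the groups. Amounts of the secreted proteins were not measured in these libraries. Over all kept genes, 31.2% had all 3 RCE values above all 3 control values and 10.9% had them below. Among the 9 genes these counts were 4 (Id2, Id3, Id4 and Smad6) and 2 (Grem1 and Bmp4), and nothing is read from them because the genes were chosen on this contrast. In limma with Benjamini-Hochberg adjustment at 0.05, 17.6% of kept genes were higher and 6.77% lower with RCE, and with the replicate number as a block 46.6% and 15.9%. Median-of-ratios scaling moved the split of calls to 913 higher and 1082 lower, against 1910 and 736 without it. Without both replicate 1 libraries the log2 changes were -1.06 for Grem1, -0.76 for Bmp4, 0.64 for Id2, 0.58 for Id3, 0.34 for Id4, 0.45 for Smad6 and 0.11 for Id1.

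The other genes of the pathway were tested from 7 lists that hold none of the 9 genes. These lists, too, were drawn up with earlier results of these data known, so their counts are not independent evidence of a direction. Of 73 genes listed, 72 were in the table under their symbol and 44 were kept. In limma, 3 of the 44 were higher and 5 lower with RCE, against 17.6% and 6.77% of all kept genes. Adding the replicate block gave 13 higher and 14 lower, against 46.6% and 15.9% of all kept genes, which are also the shares beside which each list's block counts below stand. Their median log2 change was -0.01, against +0.08 for all kept genes.

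Follistatin and DAN, secreted antagonists that are not among the 9 genes, had lower transcript levels with RCE. Among the 18 secreted modulators listed, 10 were kept, 3 fell and 1 rose (6 and 3 with the block). Their median change was -0.11. Fst, which encodes follistatin, a binder of activins and of some BMPs, was at 7.04, 7.65 and 7.80 FPKM in RCE replicates 1, 2 and 3, against 13.2, 14.3 and 15.1 FPKM in control replicates 1, 2 and 3. The groups were far apart (log2 change -0.84, SE 0.06, limma adjusted p = 6.23e-04). Nbl1 encodes DAN, which gave its name to the family that holds gremlin 1. It was at 58.8, 63.6 and 66.6 FPKM in RCE replicates 1, 2 and 3, against 81.3, 90.4 and 86.9 FPKM in control replicates 1, 2 and 3 (log2 change -0.45, SE 0.07, limma adjusted p = 0.00588). Each of these 2 genes was lower in every RCE library than in any control library, and kept its call under all 18 alternatives tried.

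Other DAN-family genes gave little. Cer1 was listed at 0 in every library, Sost and Sostdc1 averaged under the filter, and Dand5, at 2.39, 2.22 and 1.82 FPKM in RCE replicates 1, 2 and 3 against 1.76, 1.96 and 1.51 FPKM in control replicates 1, 2 and 3, overlapped between groups (log2 change 0.19, limma adjusted p = 0.165, and 0.00719 with the block). Tll1, a protease that cleaves the antagonist chordin, fell to 17.2 ± 2.15 FPKM with RCE, against 24.1 ± 3.20 FPKM in control (log2 change -0.46, SE 0.12, limma adjusted p = 0.0408). This call ended without RCE replicate 1 (adjusted p = 0.0622), RCE replicate 2 (0.0926), RCE replicate 3 (0.0726), control replicate 2 (0.13) and control replicate 3 (0.132), and with no low-value filter (0.0605) or a minimum mean of 5 FPKM (0.0552). Crim1, a membrane-anchored BMP binder, was the 1 that rose (0.15, limma adjusted p = 0.0438). Its change shrank to 0.07 under median-of-ratios scaling (adjusted p = 0.403), and its call ended without any one of the 6 libraries (adjusted p = 0.0817 to 0.151). The Crim1 call also ended with quantile normalization and with a minimum mean of 5 FPKM, and it held under 8 of 18 alternatives.

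Noggin and chordin, the antagonists best known from embryos, were scarce. Nog was at 4.43, 3.16 and 2.93 FPKM in RCE replicates 1, 2 and 3 and 3.69, 2.94 and 2.51 FPKM in control replicates 1, 2 and 3, which overlapped. Its log2 change was 0.15 (limma adjusted p = 0.519, and 0.0116 with the replicate block), with a 95% interval of -0.22 to 0.52. Chrd averaged 1.83 ± 0.0376 FPKM with RCE and 1.89 ± 0.0598 FPKM in control (log2 change -0.03, limma adjusted p = 0.591, 95% interval -0.12 to 0.06). Summed over Grem1, Nbl1, Fst, Nog and Chrd, a set put together after the values were seen, antagonist transcripts were at 284, 286 and 289 FPKM in RCE replicates 1, 2 and 3, against 541, 558 and 537 FPKM in control replicates 1, 2 and 3. Grem1 made up 72.6 to 74.6% of that sum in RCE libraries and 80.2 to 81.5% in control libraries. Both depend on the choice of genes. Over all 18 listed secreted modulators with Grem1 and Bmper, which adds abundant genes such as Fstl1 (213 ± 23.7 FPKM with RCE and 233 ± 30.4 FPKM in control) and Crim1, the sums were 679, 733 and 735 FPKM in RCE replicates 1, 2 and 3, against 956, 1030.1 and 1028.5 FPKM in control replicates 1, 2 and 3. In that sum the share of Grem1 was 28.6 to 31.2% in RCE libraries and 41.9 to 46.2% in control libraries.

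**Figure D3:**
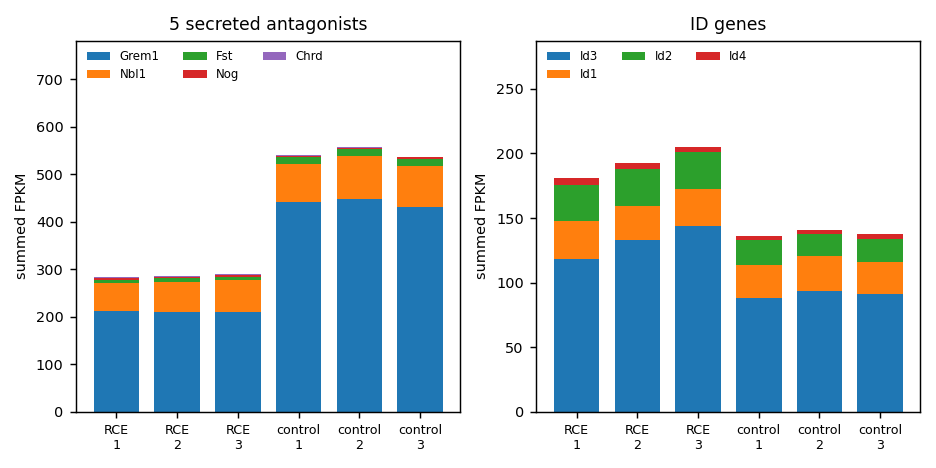
Summed FPKM (vertical axes, from 0) by library, RCE left of control, stacked by gene: 5 secreted antagonists in one panel and the 4 ID genes in the other. The antagonist sum is 284 to 289 FPKM in RCE and 537 to 558 FPKM in control libraries, and the ID sum 181 to 205 FPKM in RCE and 136 to 141 FPKM in control libraries.

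Among the other ligands, Bmp6 was the 1 of 13 that passed the filter. Bmp6 averaged 3.06 ± 0.247 FPKM with RCE and 2.85 ± 0.305 FPKM in control (log2 change 0.08, limma adjusted p = 0.496, 95% interval -0.10 to 0.25). The other 12 averaged at most 0.479 FPKM in either group, and of these Bmp8a was called lower with no filter (log2 change -0.17, limma adjusted p = 0.00862). With Bmp2 and Bmp4 the 15 ligand genes summed to 15.1, 12.5 and 12.1 FPKM in RCE replicates 1, 2 and 3 and 22.7, 17.5 and 20.4 FPKM in control replicates 1, 2 and 3. Bmp4 was 67.5 to 71.7% of this sum in RCE libraries and 78.0 to 81.1% in control libraries.

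The receptors gave no call in limma without the block: of 9 kept, 0 rose and 0 fell (0 higher and 2 lower at an unadjusted p under 0.05, 0 higher and 3 lower with the block). Their median change was -0.03. The share of all kept genes at that unadjusted p is not given here, so nothing is read from that count. The type I receptor Bmpr1a averaged 23.5 ± 0.738 FPKM with RCE and 25.2 ± 0.845 FPKM in control (log2 change -0.10, limma adjusted p = 0.189, and 0.0107 with the block). Acvr1, the type I receptor also called ALK2, averaged 19.1 ± 0.46 FPKM with RCE and 20.8 ± 0.783 FPKM in control (log2 change -0.12, limma adjusted p = 0.107, and 0.0043 with the block). With median-of-ratios scaling both passed as lower, at -0.18 (limma adjusted p = 0.0296) for Bmpr1a and -0.20 (0.0185) for Acvr1. The type II receptor Bmpr2 averaged 16.2 ± 0.904 FPKM with RCE and 15.5 ± 0.443 FPKM in control, a change of 0.06 (limma adjusted p = 0.488) that turned to -0.03 with median-of-ratios scaling. The largest drop among the 9 was in Acvrl1, named after its values were seen. It averaged 3.46 ± 0.0757 FPKM with RCE and 4.065 ± 0.361 FPKM in control, without overlap. Its log2 change was -0.18 (SE 0.06, limma adjusted p = 0.0693, and 0.0102 with the block).

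Of the SMADs that carry the signal, Smad9 rose and the others did not pass in the main comparison (1 of 4 higher and 0 lower, and 4 of 4 higher with the block, where 46.6% of all kept genes were higher). Without both replicate 1 libraries, and with no block, 4 of 4 were higher, beside 4360 genes of the whole table. With the block and median-of-ratios scaling together 2 of 4 were higher, beside 2871 genes of the whole table. The list's median was 0.16. Smad9, a receptor-activated SMAD that BMP itself induces, was at 4.04, 4.01 and 3.97 FPKM in RCE replicates 1, 2 and 3, against 3.08, 2.42 and 2.32 FPKM in control replicates 1, 2 and 3. The groups did not overlap (log2 change 0.48, SE 0.08, limma adjusted p = 0.00897), and the call held under the 17 alternatives that kept the gene. Smad1 averaged 8.92 ± 0.792 FPKM with RCE and 8.01 ± 0.41 FPKM in control (log2 change 0.14, limma adjusted p = 0.203, and 0.00832 with the block). Smad5 averaged 10.5 ± 0.591 FPKM with RCE and 9.12 ± 0.748 FPKM in control (0.18, limma adjusted p = 0.107, and 0.00123 with the block). Without both replicate 1 libraries the limma adjusted p was 0.0475 for Smad1 and 0.00792 for Smad5. With the block and median-of-ratios scaling the changes were 0.06 for Smad1 (limma adjusted p = 0.183) and 0.10 for Smad5 (0.0192).

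Inhibitors inside the cell and at its membrane gave 1 call among 9 kept genes (0 higher and 1 lower, 1 and 3 with the block). The median there was -0.04. Smurf2, a ubiquitin ligase that removes SMADs and receptors, fell to 23.9 ± 0.511 FPKM with RCE, against 27.1 ± 0.913 FPKM in control (log2 change -0.17, SE 0.04, limma adjusted p = 0.0357). That call ended without RCE replicate 1 (adjusted p = 0.0684), RCE replicate 2 (0.124), RCE replicate 3 (0.0918), control replicate 2 (0.126) and control replicate 3 (0.118). Smad7, the inhibitory SMAD that also answers to TGF-beta, measured 19.2, 18.1 and 17.7 FPKM in RCE replicates 1, 2 and 3 and 22.5, 19.8 and 20.6 FPKM in control replicates 1, 2 and 3, all RCE values below all control values. Its change of -0.18 (SE 0.06) did not pass in the main comparison (limma adjusted p = 0.0766, and 0.0011 with the block). This change had the opposite sign to that of Smad6. Smad7 was called lower under 6 of 18 alternatives. Among fits with no block, these were GC correction (-0.16, limma adjusted p = 0.0321) and median-of-ratios scaling (-0.27, 0.0459). The fit without both replicate 1 libraries also called it (-0.16, limma adjusted p = 0.00563). Leaving out any single library gave no call (adjusted p = 0.0598 to 0.214). Bambi, a decoy receptor that BMP induces, averaged 0.995 ± 0.137 FPKM with RCE and 0.611 ± 0.0546 FPKM in control, under the filter of the main comparison. With no filter it was called higher (log2 change 0.31, limma adjusted p = 0.0185).

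Other transcripts that BMP is known to induce gave few calls. Of 14 listed, 8 were kept, 0 rose and 1 fell (3 higher and 2 lower with the block). Their median was 0.02. With the block, Dlx2 (log2 change 0.24, limma adjusted p = 0.0012), Hey1 (0.16, 0.0122) and Atoh8 were higher. Msx2 (-0.11, 0.0487) and Runx2 were lower with it. In the main comparison Dlx2 (limma adjusted p = 0.421), Hey1 (0.135) and Msx2 (0.682) did not pass. Without both replicate 1 libraries, and with no block, 2 of the list were higher and 2 lower, beside 4360 and 1481 genes of the whole table. Runx2, the master regulator of bone formation, fell to 4.70 ± 0.268 FPKM with RCE, against 5.77 ± 0.327 FPKM in control (log2 change -0.25, SE 0.06, limma adjusted p = 0.0236). Its call ended without RCE replicate 2 (adjusted p = 0.0992), RCE replicate 3 (0.087), control replicate 1 (0.0518) and control replicate 2 (0.0771). Dlx3, a homeobox gene of bone and skin, lay under the filter at 0.076, 0.02 and 0.055 FPKM in RCE replicates 1, 2 and 3, against 0.368, 0.248 and 0.295 FPKM in control replicates 1, 2 and 3. All RCE values were below all control values, and with no filter Dlx3 was called lower (log2 change -0.31, limma adjusted p = 0.00553). Atoh8, a helix-loop-helix factor induced by BMP in endothelium, is added here after its values were seen. It measured 30.1, 19.6 and 19.0 FPKM in RCE replicates 1, 2 and 3 and 19.9, 12.3 and 12.4 FPKM in control replicates 1, 2 and 3. The groups overlapped because control replicate 1 lay above RCE replicates 2 and 3. Replicate 1 was the highest of its group in both, and the differences within the 3 pairs were 0.57, 0.63 and 0.58 on the log2 scale. Its log2 change of 0.59 (SE 0.24) did not pass in the main comparison (limma adjusted p = 0.122) and passed with the block (adjusted p = 1.70e-06). Atoh8 passed under 6 of 18 alternatives, among them the fit without both replicate 1 libraries, which has no block (0.60).

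Of the E proteins, the partners that ID proteins bind, 1 of 3 rose and 0 fell (2 and 0 with the block). The median of the 3 was 0.17. Tcf12 averaged 24.4 ± 0.428 FPKM with RCE and 21.6 ± 0.219 FPKM in control (log2 change 0.17, SE 0.04, limma adjusted p = 0.0245). Its change shrank to 0.09 under median-of-ratios scaling (adjusted p = 0.228), and the call ended without RCE replicate 2 (adjusted p = 0.11), RCE replicate 3 (0.0702), control replicate 1 (0.0528), control replicate 2 (0.0953) and control replicate 3 (0.0787). Tcf3, which encodes E12 and E47, averaged 19.3 ± 2.01 FPKM with RCE and 15.9 ± 1.55 FPKM in control (0.27, SE 0.09, limma adjusted p = 0.0897, and 1.94e-04 with the block). Tcf4 averaged 10.9 ± 0.284 FPKM with RCE and 10.6 ± 0.575 FPKM in control (0.04, limma adjusted p = 0.574), and its sign turned with median-of-ratios scaling (-0.04).

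**Figure D4:**
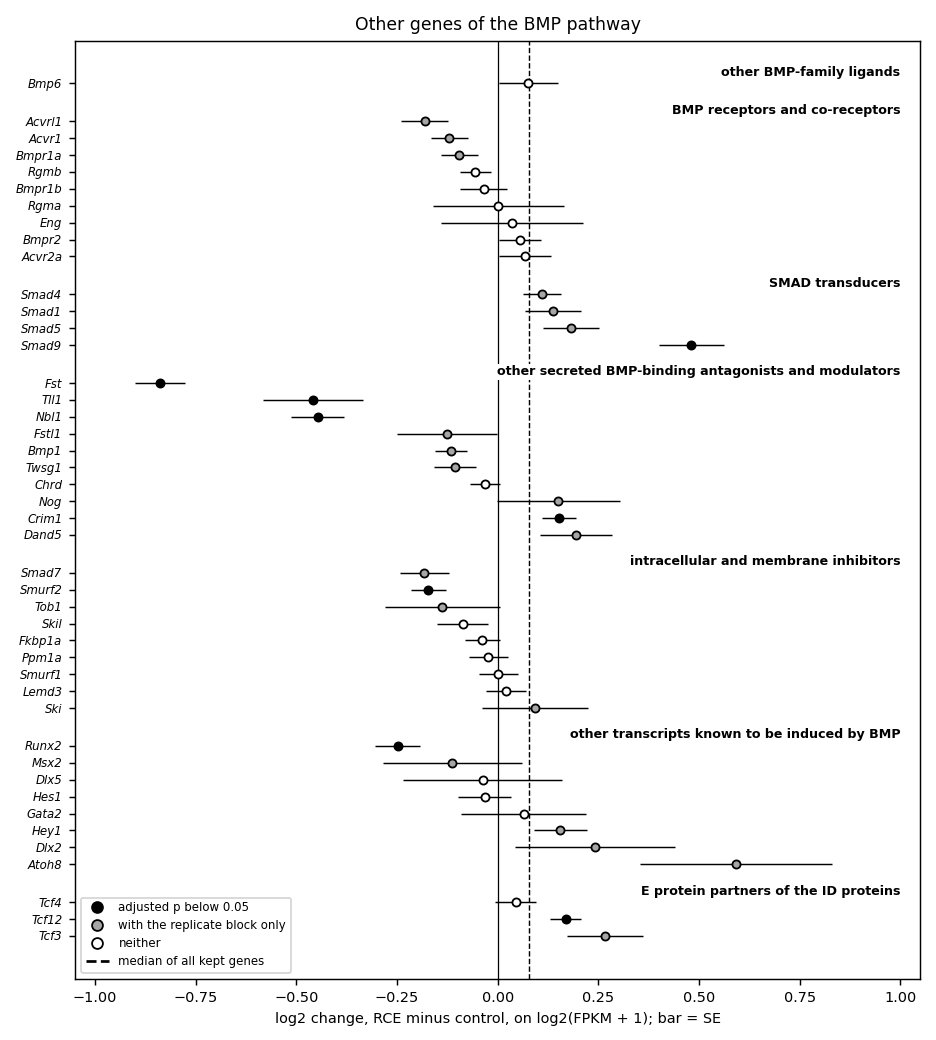
Log2 change, RCE minus control, with SE (horizontal axis) of the 44 other BMP pathway genes kept, by list: black circles passed an adjusted p of 0.05 in limma, grey ones did so with the replicate block and white ones in neither, and the dashed line is the median of all kept genes. Fst (-0.84), Tll1 (-0.46) and Nbl1 (-0.45) lie far left, and Smad9 (0.48) and Atoh8 (0.59) far right.

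The genes with the most similar profiles were sought among 7655 other genes averaging at least 5 FPKM, by the root mean square difference of centred log2 values over the 6 libraries. Nearest to Grem1 were Ank (0.02), which exports pyrophosphate and averaged 28.9 ± 0.253 FPKM with RCE and 59.8 ± 0.668 FPKM in control, the integrin subunit Itgb3 (0.04) and the semaphorin receptor Plxna2 (0.05). Nearest to Bmp4 were Triobp (0.08), an actin-binding protein, the hexokinase Hk1 (0.09) and the orphan receptor Mrgprf (0.10). Nearest to Id3 were Eda2r (0.03), a receptor for ectodysplasin, the replication helicase subunit Mcm6 (0.04) and the transcription factor Tef (0.05). Nearest to Id1 were Brd3os (0.01), the mitochondrial ribosomal protein gene Mrpl32 (0.02) and Tbc1d2 (0.03). These distances describe 6 libraries that share 2 treatments.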

How the data were processed

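The deposited table gave, for 21853 genes, 1 value per library in FPKM made by the authors; the unit is per the submitters' processing notes and the values, since the header names none. Those notes name STAR 2.5.4, Cufflinks, Cuffdiff 2.2.1 and mm10 without their roles. The kit made stranded libraries of messenger RNA per the labels' protocols, while the sources used here do not give the annotation, the filters or the strand setting of counting. A count model cannot be used on such values. All identifiers were matched to GENCODE M21 for coordinates, transcript length and GC content. Of 24 symbols on more than 1 row, the more abundant row was taken. Depth was the value at which low FPKM (0.02 to 0.5) of single-transcript genes under 2000 bases came out as whole fragments within 0.1. All of the 359 to 387 such values per library did, against about 13.9 to 15.3% at other depths.

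RCE (n = 3) and control (n = 3) log2(FPKM + 1) values of the 10870 genes averaging at least 1 FPKM were fitted in limma 3.58.1 under R 4.3.3, with the prior variance following intensity. Tests were 2-sided with Benjamini-Hochberg adjustment over all of them, and the fit was checked on simulated data. The groups share replicate numbers, and deviations from group means gave correlations of 0.92 (pair 1), 0.62 (pair 2) and 0.68 (pair 3). These correlations set replicate 1 apart in both groups. Given that, deviations of replicates 2 and 3 correlate across the groups whichever way they are paired. The numbers were still taken as labelled to pair the libraries. Results of the fit with replicate block stand beside those it alters. Across numbers 2 and 3 the correlations were 0.72 and 0.77, above those of pairs 2 and 3, so these are not ordered by the data. All results with the block rest on the numbers as given, and exchanging 2 and 3 was not tried.

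The 9 genes and the pathway lists were chosen with earlier results of these data known. Named from each list were up to 4 called genes with the smallest p, or else the most abundant kept gene, and a fixed set (Nog, Chrd, Bmpr1a, Bmpr2, Acvr1, Smad1, Smad5, Smad7, Tcf3, Tcf4 and Tcf12). Acvrl1, Atoh8, Dlx2, Hey1, Msx2, Bambi, Dlx3, Bmp8a, Fstl1 and the DAN-family genes at low levels were added after their values were seen. Hjv was not analysed here, and 1 further gene that the rule names is not reported here and is in no list count. Alternatives were pseudocounts of 0.1 and 0.5, no filter or a minimum mean of 5 FPKM, quantile normalization, median-of-ratios scaling, GC correction, no trend, the replicate block alone and with median-of-ratios scaling or GC correction, each library left out, and both replicate 1 libraries left out.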

Additional observations from a re-analysis of the deposited data

How the results depend on the processing

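Over the 17 or 18 alternatives that kept them, none of the 8 fitted genes changed sign: Grem1 ran from -1.15 to -1.03, Bmp4 from -0.85 to -0.65, Bmper from -0.29 to -0.09, Smad6 from 0.38 to 0.52, Id1 from 0.05 to 0.18, Id2 from 0.53 to 0.64, Id3 from 0.44 to 0.60 and Id4 from 0.25 to 0.42. Of the 9 genes, 4 stood higher and 2 lower without overlap, 4 to 5 and 2 to 3 with 1 library left out, and 4 lower without both replicate 1 libraries, where 2 against 2 overlap less readily. Over all kept genes the shares were 31.2% and 10.9% with all 6 libraries. They are not given for fewer libraries, so nothing is read from these counts. Genes called over the whole table (1910 higher, 736 lower) became 867 and 485 with a minimum mean of 5 FPKM, 913 higher with median-of-ratios scaling, 785 higher with quantile normalization, 4360 and 1481 without both replicate 1 libraries, and 677 to 2029 higher and 399 to 739 lower with 1 library left out. With the replicate block they were 5060 and 1730, 2871 and 3013 with median-of-ratios scaling as well, and 5047 and 1698 with GC correction as well. The other pathway genes called (3 higher, 5 lower) became 13 and 14 with the replicate block, 7 and 20 with the block and median-of-ratios scaling, 15 and 15 with the block and GC correction, and 10 and 14 without both replicate 1 libraries. They became 1 higher with a minimum mean of 5 FPKM, 1 and 10 with median-of-ratios scaling, 5 higher with GC correction, and 1 to 3 higher and 2 to 4 lower with 1 library left out. The sign turned for Bmp6 with quantile normalization (-0.0329), for Bmpr2 with median-of-ratios scaling (-0.0259, also with the block) and for Tcf4 with median-of-ratios scaling (-0.0355, also with the block) and quantile normalization (-0.0225). Where a setting itself did not lower the number of genes or libraries, the cause was not tested. Median-of-ratios scaling moved the median change of all kept genes from +0.08 to 0.00, and every log2 change near that size, as for Id1 and Tcf12, depends on it. Depth limits Bmp2 and the 28 pathway genes below the filter, and log2(FPKM + 1) understates changes of low genes.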
